A study of Mus musculus with 12 samples.

Results

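Kinesins and cytoplasmic dynein are the motor proteins that carry cargo along microtubules, and dynactin is the complex that lets dynein run far and hold cargo. Their genes were taken as every protein-coding gene of the expression table whose symbol begins with Kif and a digit, Dync or Dynl, or is one of Klc1 to Klc4 or Dctn1 to Dctn6, which gave 63 of 22559 protein-coding genes and of 38887 genes in all. By known role they were 15 axonal and dendritic kinesins, 4 kinesin light chains, 5 dynein heavy, intermediate and light intermediate chains, 9 dynein light chains, 6 dynactin subunits, 8 ciliary motors, 12 mitotic kinesins and 4 others (Kif2a, Kif12, Kif26a and Kif26b).

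Polyadenylated RNA was sequenced from 12 pools of 30 fluorescent retinal ganglion cells each, picked singly by pipette from dissociated mouse retina, for a study on what regulates axon regrowth. Opn4 cells carried the genotype Opn4CreERT/+;R26-tdTomatof/f and were red: Cre driven from the melanopsin gene, once tamoxifen is given, labels the intrinsically photosensitive class. HB9 cells carried HB9:GFP and were green, a label of the direction-selective class that responds to light ON and OFF. Mice of both lines received tamoxifen (0.124 mg/g on 5 days from postnatal day 21), had optic nerve crush or sham surgery at postnatal day 42, and were sampled 3 days later. The 4 groups of 3 libraries were Opn4 crush, Opn4 sham, HB9 crush and HB9 sham. Each library combined 3 pools of 10 cells, and 10 cells were taken per animal, so a library is an average over animals. Cre recombinase and the red reporter belonged to the Opn4 line alone and cannot be told apart from cell class, whereas crush was compared within a line. Replicates are separate libraries per the labels, and p-values measure the spread between them.

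A retinal ganglion cell keeps its body in the retina and sends its axon through the optic nerve to the brain, so most of what the axon holds is carried there. Kinesins of the kinesin-1, kinesin-2 and kinesin-3 families move vesicles, mitochondria and structural proteins outward, and dynein with dynactin moves endosomes and injury signals back to the cell body. Mitotic kinesins build and drive the spindle of dividing cells, and mature neurons do not divide.

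Values are RPKM, reads scaled to gene length and to the reads of the library, as deposited, so levels of different genes are compared per length. Libraries had been scaled to between 15104446 and 28195798 reads, and each held 15021 to 16514 genes at 1 RPKM or more. Reads worked back from the RPKM values summed to between 35002051 and 68414023 per library. This was above the scaling total in every library, for a reason not known here, so those totals may not be the true depth. Differences were tested as log2(RPKM + 1) with limma for the 18269 genes at 1 RPKM or more in at least 3 of the 12 libraries. Benjamini-Hochberg adjustment ran over all of these genes, and an adjusted p under 0.05 counts as a call. Of the motor genes, 45 passed that filter and 18 did not, so counts below cover the 45. A gene that passed only through the group in which it was high had to differ, and the fold of a gene near 0 is understated by the added 1. Opn4 sham replicate 1 and Opn4 crush replicate 1 stood apart from the other libraries on the third principal component, at 83.8 and -61.9, where the other 10 lay between -33.2 and 34.3. Ganglion cell markers were present, with 9 or 10 of 10 at 1 RPKM or more in all 3 libraries of each group. Markers of the photosensitive class summed to 2238 to 3691 RPKM in Opn4 libraries and 41.5 to 349 RPKM in HB9 libraries. In such pools, fewer cells of a type and less RNA per cell cannot be told apart.

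The axonal motors were abundant and the mitotic kinesins were at low levels in all 12 libraries. Of the 15 axonal and dendritic kinesins, 9 reached 1 RPKM in every library, and their median level was between 26.97 and 87.04 RPKM per library. Of the 12 mitotic kinesins, 2 reached 1 RPKM in every library, and their median was between 0 and 0.154 RPKM. On the log2(RPKM + 1) scale the median axonal kinesin stood 5.67 ± 0.531 above the median mitotic kinesin (mean and SD over 12 libraries, in the same direction in each). Axonal kinesins made up 26.8% to 34.9% of all motor RPKM, and mitotic kinesins 0.131% to 0.603%.

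**Figure D1:**
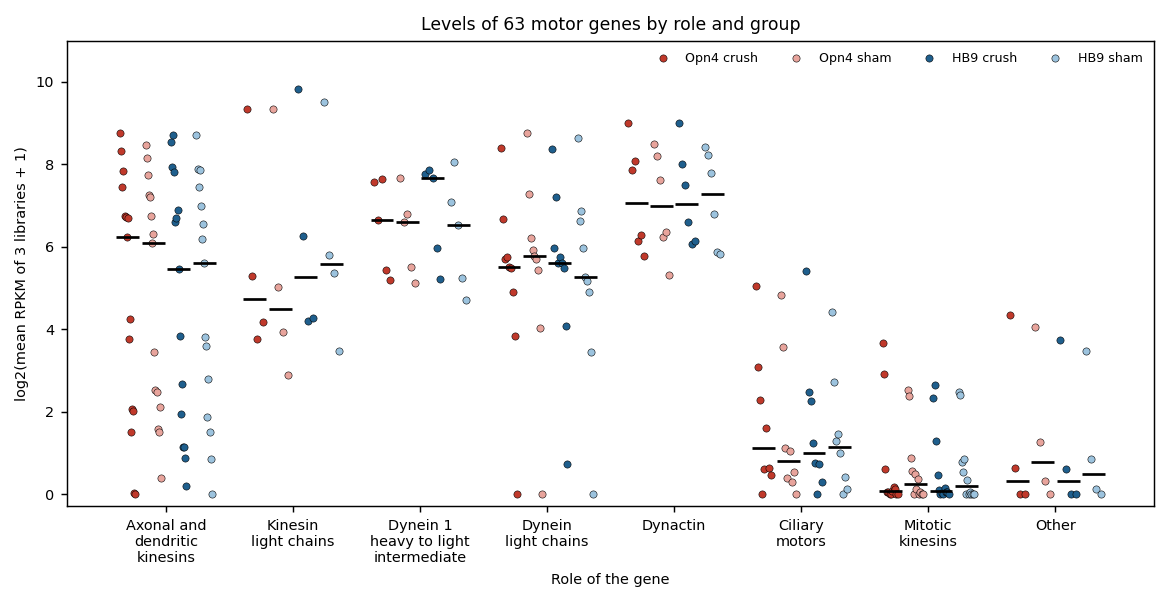
Level of each of the 63 motor genes as log2(mean RPKM of 3 libraries + 1), by role and group; each point is a gene and each bar the median of its role in that group. Axonal kinesins, dynein and dynactin subunits lie mostly above the ciliary and mitotic motors in all 4 groups.

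The most abundant motor gene was Klc1, a light chain that links kinesin-1 to cargo, at a mean of 732 RPKM over the 12 libraries. It was followed by Dctn2, the dynactin subunit known as dynamitin, at 430.3 RPKM, and by Kif5a, a neuronal kinesin-1 heavy chain, at 395 RPKM. Next came the dynein light chain Dynlrb1 at 374 RPKM and Kif1a, the kinesin-3 that carries synaptic vesicle precursors, at 270.4 RPKM. The dynactin subunit Dctn3 averaged 270.1 RPKM, the kinesin-2 subunit Kif3a 244 RPKM, and Dctn1, the large dynactin subunit that binds microtubules, 215 RPKM. Kif5c, another neuronal kinesin-1 heavy chain, averaged 209 RPKM, and the dynein light intermediate chain Dync1li1 averaged 186 RPKM. In all, 14 motor genes had a mean of at least 100 RPKM, and 36 were at 1 RPKM or more in every library.

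Shares within a set of related subunits were taken from their summed RPKM. Kif5a gave 55.95% ± 4.975 of the RPKM of the 3 kinesin-1 heavy chains over the 12 libraries (SD), Kif5c 29.85% ± 4.08, and the more widely expressed Kif5b 14.2% ± 3.695. Klc1 gave 89.85% ± 2.98 of the light chain RPKM. Kif3c gave 86.8% ± 5.59 of the summed RPKM of Kif3b and Kif3c, the 2 alternative partners of Kif3a. Dync1h1, the heavy chain that holds dynein's motor domain, was at 27.65 to 75.4 RPKM, below both light intermediate chains in every library. Its length worked back from the RPKM values was 15658 bp, against 2601 bp for Dync1li1 and 4633 bp for Dync1li2. Whether reads covered genes of such unlike length evenly was not tested, so this is no measure of subunit numbers. The kinesin-4 motors differed in level, with Kif21a between 83.5 and 168.5 RPKM and Kif21b between 0.143 and 6.39 RPKM.

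Of the 12 mitotic kinesins, 2 or 3 reached 1 RPKM in each library and 5 did so in at least 1 library. Kif11, which pushes spindle poles apart, averaged 0.0392 RPKM, from 45 reads recovered over all 12 libraries. Kif2c, which shortens microtubules at centromeres, averaged 0.0822 RPKM, and Kif23, which acts in cytokinesis, averaged 0.227 RPKM with 2.26 RPKM in HB9 sham replicate 3. Kif2b was listed at 0 in all 12 libraries, as was Kif12 among the other members. Kif20a, also a cytokinesis kinesin, was at 2.47 to 10.25 RPKM. It overlaps 2315 bp of Cdc23 on the opposite strand, which was at 8.65 to 33.5 RPKM, and the chromosome-binding Kif4, at 0.281 to 2.03 RPKM, overlaps 832 bp of Pdzd11 on the opposite strand, at 13.05 to 88.2 RPKM. Whether reads were counted by strand is not given in the sources used here, so reads of such pairs cannot be told apart. The chromosome-binding Kif22 was at 1.38 to 17.0 RPKM, and no listed gene overlaps it. Of 18 other cell cycle genes, none reached 1 RPKM in all 12 libraries, and the proliferation marker Mki67 and the mitotic kinase Aurkb were at 0 in all 12. These 18 include the mitotic kinesins Kifc1 and Cenpe, which the symbol rule left out of the motor list. Kifc1 was at 0 to 0.820 RPKM and Cenpe at 0 to 2.06 RPKM, and neither passed the filter. Kif2a, which shortens microtubules in neurons as well as in dividing cells, was at 9.36 to 30.2 RPKM.

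The effect of crush on motor genes was first taken in Opn4 cells. No motor gene passed the threshold: limma called 0 of 45, against 1.11% of all genes tested (0.69% higher and 0.421% lower), and 11 of 45 were at an unadjusted p under 0.05, against 14.3% of all genes. The 3 crush libraries lay wholly above the 3 sham libraries for 5 of the 45 and wholly below for 5, where this held for 7.38% and 7.33% of all genes and 14.7% in either direction. The median log2 change of the 45 was -0.02 and that of all genes was -0.02. Opn4 libraries had a mean correlation with their own group of 0.864 to 0.905, against 0.935 to 0.951 for HB9 libraries. The main fit shares its spread over all groups. With only the groups compared, calls over all genes were 13 in place of 203 in Opn4 cells, and 1939 in place of 1172 in HB9 cells. With library weights they were 87 and 3025. Counts of calls in the classes are therefore not directly comparable.

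Dync1li2, a light intermediate chain that ties dynein to cargo adaptors, came nearest the threshold in Opn4 cells. It was at 233.5, 159 and 206 RPKM in Opn4 crush libraries, against 87.4, 128 and 113 RPKM in Opn4 sham libraries. All 3 crush libraries were above all 3 sham libraries, and the log2 change was 0.86 ± 0.204 (SE) with a limma adjusted p of 0.0667. Without Opn4 crush replicate 2 the adjusted p was 0.0451. Dctn2 was at 462, 588.5 and 476.5 RPKM in Opn4 crush libraries and at 323, 367 and 386 RPKM in Opn4 sham libraries, with a log2 change of 0.50 ± 0.129 and an adjusted p of 0.0875. Kif5c averaged 228 ± 23.8 RPKM in Opn4 crush and 151.5 ± 12.6 RPKM in Opn4 sham (SD, n = 3 each), with a limma log2 change of 0.59 ± 0.178 and an adjusted p of 0.147. The groups did not overlap for these 3 genes, none of which passed. Dynll1, a light chain that also holds many other proteins in pairs, averaged 102 ± 21.4 RPKM in Opn4 crush and 154 ± 21.1 RPKM in Opn4 sham, with a log2 change of -0.61 ± 0.231 and a limma adjusted p of 0.252. The 8 tested dynein light chains had a median log2 change of -0.33 in Opn4 cells, against -0.02 for all genes, and 0 of them were called by limma, with 2 at an unadjusted p under 0.05.

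In HB9 cells, 4 motor genes rose after crush and none fell. Limma called 4 of 45 higher, against 3.84% of all genes, and 0 of 45 lower, against 2.57% of all genes and 6.42% in either direction. At an unadjusted p under 0.05 were 11 of 45, against 18.9% of all genes. Those 4 were Kif3a, Dync1li2, Dctn2 and Dync1li1, which are 1 of 14 axonal kinesins, 2 of 5 dynein heavy to light intermediate chains and 1 of 6 dynactin subunits. None of the 8 dynein light chains, 4 kinesin light chains, 4 ciliary motors or 3 mitotic kinesins tested was called. The crush libraries lay wholly above the sham libraries for 13 of the 45, where this held for 19% of all genes, and wholly below for 7, where it held for 12.6% (31.5% in either direction). The median log2 change of the 45 was 0.23 and that of all genes was 0.11. Rescaling moved the median of all genes to 0.03 with TMM-type factors and to -0.01 with quantile normalization. The motor calls were then 3 higher and 1 lower with TMM-type factors (Dync1li1 lost, Dynll1 lower), and 4 higher and 2 lower with quantile normalization (Dync1li1 lost, Klc1 higher, Dynll1 and Klc2 lower). All genes gave 618 higher and 672 lower, and 600 higher and 605 lower, in place of 702 higher and 470 lower.

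**Figure D2:**
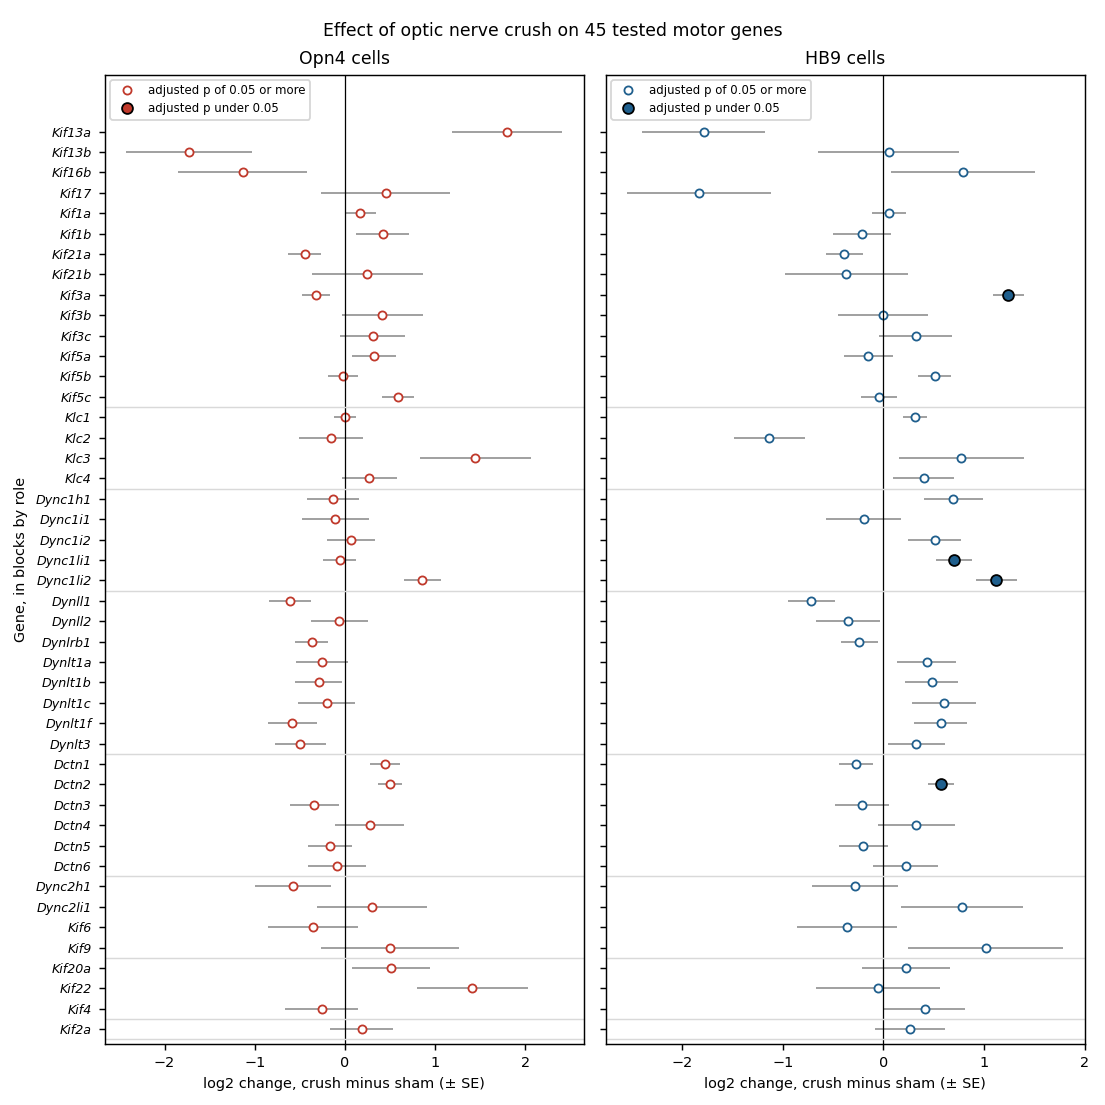
Log2 change with crush minus sham ± SE from limma for the 45 tested motor genes, in Opn4 cells on the left and HB9 cells on the right; filled points are calls. The calls are Kif3a, Dync1li1, Dync1li2 and Dctn2 in HB9 cells, and Opn4 cells have none.

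Kif3a encodes the shared subunit of heterotrimeric kinesin-2, which moves vesicles in axons and carries cargo outward in cilia. It lies at chr11:53567379-53601967 on the plus strand in mm10, and no other listed gene overlaps it. Kif3a was at 377, 398 and 470 RPKM in HB9 crush libraries, against 168.5, 192 and 163 RPKM in HB9 sham libraries. Every HB9 crush library was above every HB9 sham library and above all 6 Opn4 libraries. The fold was 2.36 (log2 change 1.24 ± 0.157, limma adjusted p 0.000435). In Opn4 cells it was at 195, 178 and 144 RPKM after crush and at 238, 202 and 204 RPKM after sham, with a log2 change of -0.32 ± 0.157 and an adjusted p of 0.38. The crush effect in Opn4 cells minus that in HB9 cells was -1.56 ± 0.222, with an adjusted p of 0.00763. It was the 1 motor gene of 45 called for that difference, where 0.816% of all genes were (0.29% higher and 0.525% lower), and 8 of 45 were at an unadjusted p under 0.05, against 12.9%. The call was kept in all 22 alternatives run. The median difference of all genes was -0.13, and -0.03 and 0.01 after the 2 rescalings, which gave 72 higher and 85 lower, and 78 and 93, in place of 53 and 96.

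The partners of Kif3a in kinesin-2 did not pass the threshold. Kif3c averaged 117 ± 21.9 RPKM in HB9 crush and 92.7 ± 9.55 RPKM in HB9 sham, and 74.8 ± 17.1 RPKM in Opn4 crush and 66.8 ± 35.1 RPKM in Opn4 sham. Kif3b averaged 13.15 ± 4.22 RPKM in HB9 crush and 13.1 ± 3.89 RPKM in HB9 sham, and 12.5 ± 3.94 RPKM in Opn4 crush and 9.88 ± 5.58 RPKM in Opn4 sham. Their libraries overlapped between crush and sham in both classes. The opposite strand gene 1110002L01Rik, at 21.1 to 70.1 RPKM, overlaps 2617 bp of Kif3c. Kifap3, the non-motor subunit that completes the trimer and no member of the motor list, is given here after its values were seen. It was at 229, 275 and 255 RPKM in HB9 crush libraries and at 321, 332 and 375 RPKM in HB9 sham libraries. Opn4 crush libraries were at 144, 148 and 160 RPKM, and Opn4 sham libraries at 199, 214.5 and 237 RPKM. Crush libraries were below sham libraries in both classes without overlap, but the log2 changes of -0.44 ± 0.137 in HB9 cells and -0.52 ± 0.137 in Opn4 cells had limma adjusted p of 0.0848 and 0.0942. In HB9 cells it passed with TMM-type factors, library weights and voom, at 0.013 to 0.0285. The ratio of Kif3a to Kifap3 was 1.64 ± 0.195 in HB9 crush and 0.513 ± 0.0725 in HB9 sham, against 1.15 ± 0.232 in Opn4 crush and 1.00 ± 0.176 in Opn4 sham (SD, n = 3 each).

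**Figure D3:**
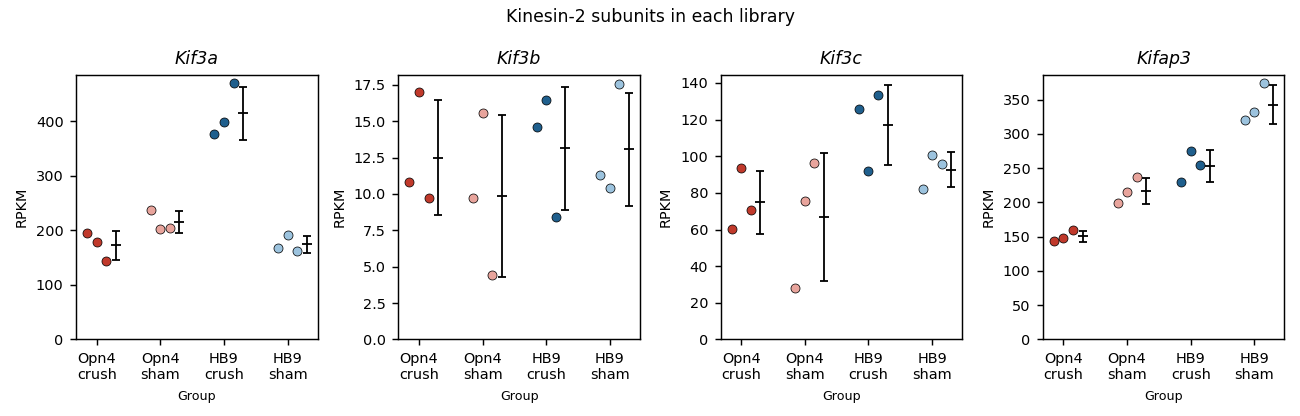
RPKM of the kinesin-2 subunits Kif3a, Kif3b, Kif3c and Kifap3 in each library, by group; points are libraries and bars the mean ± SD of 3. The 3 HB9 crush libraries have 377 to 470 RPKM of Kif3a and stand above the other 9, and Kifap3 lies lower after crush than after sham in both classes.

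The 2 dynein light intermediate chains and dynamitin were the other genes that rose after crush in HB9 cells. Dync1li2 (chr8:104417674-104443047, minus strand) was at 174, 184 and 244 RPKM in HB9 crush libraries, against 83.8, 88.5 and 101 RPKM in HB9 sham libraries. The groups were well apart, with a fold of 2.18 (log2 change 1.12 ± 0.204, adjusted p 0.00495). Dync1li1, which also joins dynein to adaptors (chr9:114688790-114724302, plus strand), was at 230.5, 202 and 220.2 RPKM in HB9 crush libraries and at 122.5, 159 and 122 RPKM in HB9 sham libraries. Again the groups did not overlap, with a log2 change of 0.70 ± 0.18 and an adjusted p of 0.0359. In Opn4 cells Dync1li1 averaged 189.7 ± 9.04 RPKM after crush and 201 ± 46.6 RPKM after sham.

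Dctn2 (chr10:127266262-127281959, plus strand) was at 510.1, 529 and 492 RPKM in HB9 crush libraries, against 349, 344 and 336 RPKM in HB9 sham libraries. Its log2 change was 0.57 ± 0.129 with an adjusted p of 0.0184, and libraries of a group were within a narrow range. The call of Dctn2 was lost, at adjusted p of 0.0513 to 0.0689, without any 1 of HB9 sham replicates 1, 2 and 3 or HB9 crush replicates 1 and 2. That of Dync1li1 was lost in 9 of 23 alternatives, among them both rescalings, at adjusted p of 0.076 and 0.0704, and the fits without HB9 sham replicate 1 or 3 or without any 1 HB9 crush library, at 0.0704 to 0.13. The calls of Kif3a and Dync1li2 were kept in all 23. Without any 1 HB9 library, calls over all genes fell as well, to between 645 and 777 in place of 1172. The effects of crush on Dync1li2, Dctn2 and Dync1li1 were not shown to differ between the classes, with adjusted p of 0.772, 0.914 and 0.22 for the difference. Both classes had crush libraries wholly above sham libraries for Dync1li2 and Dctn2.

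**Figure D4:**
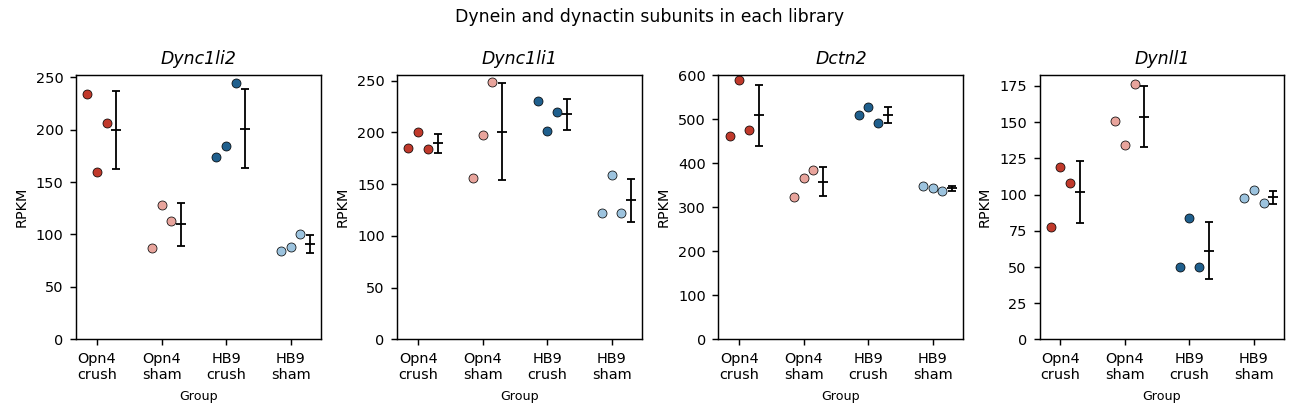
RPKM of Dync1li2, Dync1li1, Dctn2 and Dynll1 in each library, by group; points are libraries and bars the mean ± SD of 3. Dync1li2 and Dctn2 lie higher after crush than after sham in both classes, Dync1li1 in HB9 cells, and Dynll1 lies lower after crush.

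The balance of the 2 light intermediate chains differed between crush and sham in Opn4 cells. Dync1li2 gave 51.0% ± 5.94 of their summed RPKM in Opn4 crush and 35.5% ± 4.14 in Opn4 sham (SD, n = 3 each), and the groups did not overlap. In HB9 cells it gave 47.8% ± 4.77 after crush and 40.6% ± 4.74 after sham, and the groups overlapped. These shares were described and not tested.

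Several genes of HB9 cells lay apart between crush and sham without passing the threshold. Klc2, a light chain of kinesin-1, was at 19.3, 13.1 and 19.8 RPKM in HB9 crush libraries, against 43.0, 50.9 and 26.5 RPKM in HB9 sham libraries, with a log2 change of -1.13 ± 0.354 and an adjusted p of 0.0828. Dynll1 averaged 61.2 ± 19.7 RPKM in HB9 crush and 98.2 ± 4.52 RPKM in HB9 sham, with a log2 change of -0.72 ± 0.231 and a limma adjusted p of 0.0938. Kif5b averaged 103 ± 3.69 RPKM in HB9 crush and 72.4 ± 4.71 RPKM in HB9 sham, with a log2 change of 0.51 ± 0.165 and a limma adjusted p of 0.0944. Kif13a, a kinesin-3 that moves endosomal cargo, lay on opposite sides in the 2 classes. It was at 26.4, 8.73 and 19.2 RPKM in Opn4 crush libraries and at 1.66, 3.99 and 8.64 RPKM in Opn4 sham libraries, but at 4.72, 3.24 and 0.594 RPKM in HB9 crush libraries and at 9.75, 15.2 and 8.13 RPKM in HB9 sham libraries. The difference between the classes was 3.58 ± 0.862 on the log2 scale with an adjusted p of 0.0816, so it did not pass.

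Other motors known for axonal transport did not pass the threshold for crush. Kif5a averaged 432 ± 65.5 RPKM in Opn4 crush, 352 ± 99.5 RPKM in Opn4 sham, 374 ± 61.1 RPKM in HB9 crush and 422 ± 111 RPKM in HB9 sham. Kif1a averaged 318 ± 47.6 RPKM in Opn4 crush, 283 ± 51.7 RPKM in Opn4 sham, 245 ± 29.6 RPKM in HB9 crush and 235 ± 22.2 RPKM in HB9 sham. Libraries of crush and sham overlapped for both genes in both classes. Kif21a averaged 107 ± 16.8 RPKM in Opn4 crush and 146 ± 19.75 RPKM in Opn4 sham, and 95.9 ± 14.7 RPKM in HB9 crush and 125 ± 8.58 RPKM in HB9 sham. Its crush libraries lay wholly below its sham libraries in both classes, but it did not pass in either. Dync1h1 averaged 42.6 ± 16.5 RPKM in Opn4 crush and 44.5 ± 0.3955 RPKM in Opn4 sham, and 61.6 ± 17.3 RPKM in HB9 crush and 36.9 ± 5.22 RPKM in HB9 sham. HB9 crush libraries lay wholly above HB9 sham libraries for Dync1h1, which did not pass. Dynll2, close in sequence to Dynll1, averaged 52.5 ± 7.01 RPKM in Opn4 crush and 60.0 ± 30.6 RPKM in Opn4 sham, and 47.5 ± 2.36 RPKM in HB9 crush and 61.2 ± 8.33 RPKM in HB9 sham, without overlap in HB9 cells. It did not pass either, nor did Kif2a, Kif21b, Kif4, Kif20a or Kif22. The near-identical copies Dynlt1a, Dynlt1b, Dynlt1c and Dynlt1f can share reads, so the values of each are uncertain, and none of them was called.

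Markers of other cells and of ganglion cells also differed with crush. The summed RPKM of 10 Muller glia and astrocyte markers was 796 to 2197 in HB9 crush libraries and 416 to 420.5 in HB9 sham libraries. Most of it was Clu, at 705 to 1987 RPKM in HB9 crush and 195 to 248 RPKM in HB9 sham. Of these 10 markers, 6 were at 1 RPKM or more in all 3 HB9 crush libraries and 4 in all 3 HB9 sham libraries, and the defining Aqp4 and Sox9 were at 0 in both groups. Rlbp1, a marker of Muller glia, was at 14.7 to 31.5 RPKM in HB9 crush and 2.30 to 3.73 RPKM in HB9 sham, and Vim at 6.31 to 40.2 RPKM in HB9 crush and 0 to 2.50 RPKM in HB9 sham. Dkk3 lay the other way, at 38.4 to 135 RPKM in HB9 crush and 153 to 204 RPKM in HB9 sham. Of the 10, 6 were tested, of which 2 were called higher and 1 lower. For crush in HB9 cells 3.84% of all genes were called higher and 2.57% lower. The summed RPKM of 10 ganglion cell markers was 5196 to 5963 in HB9 crush and 8795 to 9819 in HB9 sham, and 4 of 10 were called lower. Class markers moved as well. The 5 markers of the photosensitive class summed to 276 to 349 RPKM in HB9 crush and 41.5 to 60.6 RPKM in HB9 sham, with 2 of 5 called higher. For the crush effect in Opn4 cells minus that in HB9 cells 2 of 5 were called lower, against 0.525% of all genes. The 5 markers of the direction-selective class had negative log2 changes in HB9 cells, 1 of them called lower. For that difference 1 of them was called higher, against 0.29% of all genes. Rod markers summed to 671 to 1073 RPKM in HB9 crush and 331 to 1129 RPKM in HB9 sham, and with their mean log2 level as a covariate the same 4 motor genes were called. In Opn4 cells the Muller glia and astrocyte markers summed to 806 to 1034 RPKM after crush and 533 to 626 RPKM after sham. Clu was at 536 to 682 RPKM after crush and 211 to 287 RPKM after sham, and Dkk3 at 208 to 233 and 247 to 292 RPKM. The highest values after crush and sham were 86.6 and 27.1 RPKM for Rlbp1, 73.0 and 3.55 for Apoe and 14.7 and 0.845 for Slc1a3. They were 6.28 and 1.37 RPKM for Aqp4 and 1.54 and 0 for Sox9, and Gfap was at 0. Of the 6 tested, 0 were called for crush in Opn4 cells. Ganglion cell markers summed to 4158 to 4864 RPKM after crush and 5117 to 5502 RPKM after sham. The part of the Muller glia, ganglion cell and class markers in the changes of the motor genes was not tested.

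Promoter windows are shown for the genes that were called higher in HB9 crush. RefSeq gave a window of 300 bases, from 250 before to 50 after its own start position, for 3 of the 4 on build GRCm38.p6, and Dync1li2 is named only. For Kif3a and Dync1li1 that position is not the gene start given above. Kif3a is at chr11:53567119-53567418, Dctn2 at chr10:127266012-127266311 and Dync1li1 at chr9:114688581-114688880, each on the plus strand. Sequences run 5′ to 3′, and capitals mark the GC box GGGCGG or its complement CCGCCC.

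Kif3a: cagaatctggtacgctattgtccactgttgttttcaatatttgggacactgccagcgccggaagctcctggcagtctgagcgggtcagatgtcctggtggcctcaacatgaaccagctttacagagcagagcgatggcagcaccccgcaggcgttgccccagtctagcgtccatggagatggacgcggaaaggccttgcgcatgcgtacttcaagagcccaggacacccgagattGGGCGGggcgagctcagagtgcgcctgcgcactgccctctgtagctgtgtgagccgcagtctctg

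Dctn2: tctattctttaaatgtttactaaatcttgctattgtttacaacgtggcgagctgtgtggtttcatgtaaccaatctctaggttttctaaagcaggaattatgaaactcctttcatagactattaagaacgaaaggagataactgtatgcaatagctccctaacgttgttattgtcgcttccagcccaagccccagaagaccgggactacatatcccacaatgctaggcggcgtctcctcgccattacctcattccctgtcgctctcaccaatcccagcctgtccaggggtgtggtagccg

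Dync1li1: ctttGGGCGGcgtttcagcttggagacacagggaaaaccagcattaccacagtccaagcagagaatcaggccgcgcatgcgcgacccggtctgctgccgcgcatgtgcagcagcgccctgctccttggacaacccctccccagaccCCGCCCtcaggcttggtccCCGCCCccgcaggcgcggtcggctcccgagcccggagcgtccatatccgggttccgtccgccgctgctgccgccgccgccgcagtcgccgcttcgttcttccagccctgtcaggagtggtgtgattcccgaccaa

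The AP-1 motif TGANTCA, bound by the injury-linked factor Jun, and the CRE motif TGACGTCA each letter N standing for any base, were searched on both strands and had 0 matches in each of the 3 windows. The GC box had 1 match in Kif3a, 0 in Dctn2 and 3 in Dync1li1. Over all 32851 RefSeq windows of this length, 7.81% held the AP-1 motif, 1.79% the CRE motif and 35.7% the GC box. Of the 56 windows of 49 motor genes, 0 held the AP-1 motif, 5 held the CRE motif (Dctn3, Kif17, Kif18a, Kif5c and Klc1) and 38 held the GC box. A match is a run of letters in the reference and no measure of binding.

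The classes were compared after crush, as Opn4 crush minus HB9 crush, with HB9 crush libraries shared with the comparison above. Limma called 3 of 45 motor genes higher in Opn4 crush, against 5.12% of all genes, and 4 lower, against 7.6% (12.7% in either direction). At an unadjusted p under 0.05 were 10 of 45, against 26.5% of all genes. The kinesin-3 motors Kif1b and Kif13a and the dynactin subunit Dctn1 were higher. Kif3a, the light chain Dynlt3, the kinesin light chain Klc1 and the intermediate chain Dync1i1 were lower. Both rescalings gave 4 higher and 4 lower, with Dynll1 added as higher.

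Kif1b, which carries mitochondria and vesicle precursors, was at 119, 87.0 and 103 RPKM in Opn4 crush libraries, against 41.6, 27.0 and 59.9 RPKM in HB9 crush libraries. Its groups did not overlap, with a log2 difference of 1.31 ± 0.291 and an adjusted p of 0.0111. Kif13a, with the values given above, differed by 2.37 ± 0.61 with an adjusted p of 0.0226. Dctn1 was at 319, 258 and 227 RPKM in Opn4 crush libraries and at 173, 173 and 192 RPKM in HB9 crush libraries, with a log2 difference of 0.57 ± 0.168 and an adjusted p of 0.0437.

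Kif3a, at the levels given above, differed by -1.27 ± 0.157 between Opn4 crush and HB9 crush, with an adjusted p of 0.00024. Dynlt3, a light chain of the Tctex family, was at 33.2, 63.3 and 57.0 RPKM in Opn4 crush libraries, against 125, 167 and 149 RPKM in HB9 crush libraries, with a log2 difference of -1.55 ± 0.284 and an adjusted p of 0.00362. Klc1 was at 668, 683 and 590 RPKM in Opn4 crush libraries and at 946, 958 and 818 RPKM in HB9 crush libraries, with a log2 difference of -0.49 ± 0.12 and an adjusted p of 0.0186. Dync1i1, an intermediate chain enriched in neurons, was at 42.3, 158 and 97.7 RPKM in Opn4 crush libraries and at 243, 268 and 188 RPKM in HB9 crush libraries, with a log2 difference of -1.40 ± 0.376 and an adjusted p of 0.0279. The libraries of the classes did not overlap for these 7 genes. In all, Opn4 crush lay wholly above HB9 crush for 5 of 45 (12.8% of all genes) and wholly below for 7 (17.6%, and 30.4% in either direction).

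Rod markers were higher in Opn4 than in HB9 libraries, with a mean log2 level of 5.32 to 6.72 in Opn4 crush and 4.18 to 4.98 in HB9 crush, and 15 of 15 rod markers had positive differences. Ganglion cell markers summed to 4158 to 4864 RPKM in Opn4 crush and 5196 to 5963 RPKM in HB9 crush. Of the 10, 1 was called higher and 5 lower, against 5.12% and 7.6% of all genes, and their part in the differences was not tested. With the mean log2 level of rod markers as a covariate only Kif3a of the 7 was called, at a limma adjusted p of 0.00284. Calls over all genes fell too, to 1007 in place of 2325. The log2 differences were then 1.41 for Kif1b, 2.43 for Kif13a and 0.58 for Dctn1. They were -1.37 for Kif3a, -1.36 for Dynlt3, -0.47 for Klc1 and -0.97 for Dync1i1. Rod level and class move together and cannot be told apart. Calls also changed when 1 library was left out. Without 1 library of either crush group, calls over all genes fell as well, to between 1356 and 2201 in place of 2325. Dctn1 lost its call in 15 of 23 alternatives, at adjusted p of up to 0.168, Dync1i1 in 7, at up to 0.27, Kif13a in 6, at up to 0.117, and Klc1 in 4, at up to 0.118. Without Opn4 crush replicate 1 the adjusted p was 0.141 for Dctn1, 0.0662 for Dync1i1 and 0.0753 for Kif13a. Without Opn4 crush replicate 2 it was 0.0713 for Dctn1, and without Opn4 crush replicate 3 it was 0.0576 for Kif13a and 0.0659 for Klc1. Without HB9 crush replicate 1 it was 0.128 for Dctn1, 0.0876 for Dync1i1 and 0.0787 for Klc1, without HB9 crush replicate 2 it was 0.118 for Dctn1, 0.0937 for Dync1i1 and 0.07 for Klc1, and without HB9 crush replicate 3 it was 0.08 for Dctn1, 0.0508 for Dync1i1 and 0.097 for Kif13a. Dctn1 was also lost, at 0.0516 to 0.0586, without replicate 2 or 3 of either sham group.

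After sham, limma called 1 of 45 motor genes higher in Opn4 sham than in HB9 sham, against 5.82% of all genes, and 3 lower, against 5.93% (11.8% in either direction). At an unadjusted p under 0.05 were 10 of 45, against 24.7% of all genes, and libraries lay wholly apart for 12 higher (15.5%) and 7 lower (15.2%, and 30.7% in either direction). Kif5b was higher, at 117, 105 and 97.8 RPKM in Opn4 sham libraries, against 67.0, 76.0 and 74.1 RPKM in HB9 sham libraries, with a log2 difference of 0.55 ± 0.165 and an adjusted p of 0.0468. Kif5c was lower, at 156.5, 137 and 161 RPKM in Opn4 sham libraries and 183, 253 and 262 RPKM in HB9 sham libraries, with a log2 difference of -0.60 ± 0.178 and an adjusted p of 0.0449. These kinesin-1 heavy chains lay in opposite directions, but the call of Kif5b was lost in 15 of 23 alternatives and that of Kif5c in 12. Kif5a was not called. Klc2 was at 9.27, 15.5 and 18.0 RPKM in Opn4 sham libraries, against 43.0, 50.9 and 26.5 RPKM in HB9 sham libraries, with a log2 difference of -1.43 ± 0.354 and an adjusted p of 0.0194. Dync1i1 was at 71.8, 133 and 85.3 RPKM in Opn4 sham libraries, against 231, 292 and 274 RPKM in HB9 sham libraries, with a log2 difference of -1.49 ± 0.376 and an adjusted p of 0.0209. It was called in both class comparisons, and it gave 54.1% to 83.5% of the summed RPKM of Dync1i1 and Dync1i2 in the 6 Opn4 libraries but 82.7% to 93.7% in the 6 HB9 libraries.

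None of these 4 calls was kept with the rod level as a covariate, at adjusted p of 0.304 for Kif5b, 0.466 for Kif5c, 0.159 for Klc2 and 0.274 for Dync1i1. Calls over all genes fell too, to 980 in place of 2148. The log2 differences were then 0.46 for Kif5b, -0.33 for Kif5c, -1.32 for Klc2 and -1.04 for Dync1i1. Rod markers had a mean log2 level of 4.70 to 6.27 in Opn4 sham and 3.31 to 5.07 in HB9 sham, and rod level and class cannot be told apart. Ganglion cell markers summed to 5117 to 5502 RPKM in Opn4 sham and 8795 to 9819 RPKM in HB9 sham. Of the 10, 7 were called lower, against 5.93% of all genes, and their part was not tested. Both rescalings gave 0 higher and 3 lower, with Kif5b lost. Calls again changed when 1 library was left out: 0 motor genes were called without HB9 sham replicate 2, 1 without HB9 sham replicate 3 or Opn4 sham replicate 3 (Klc2), and 2 without HB9 sham replicate 1 or HB9 crush replicate 1. Without 1 library of either sham group, calls over all genes fell as well, to between 1348 and 1923 in place of 2148. Without Opn4 sham replicate 1, which stood apart, all 4 calls were lost and 1 other, Dync1li1, was called higher. The antisense gene Gm17036, at 16.3 to 54.5 RPKM, overlaps 13412 bp of Kif5b.

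**Figure D5:**
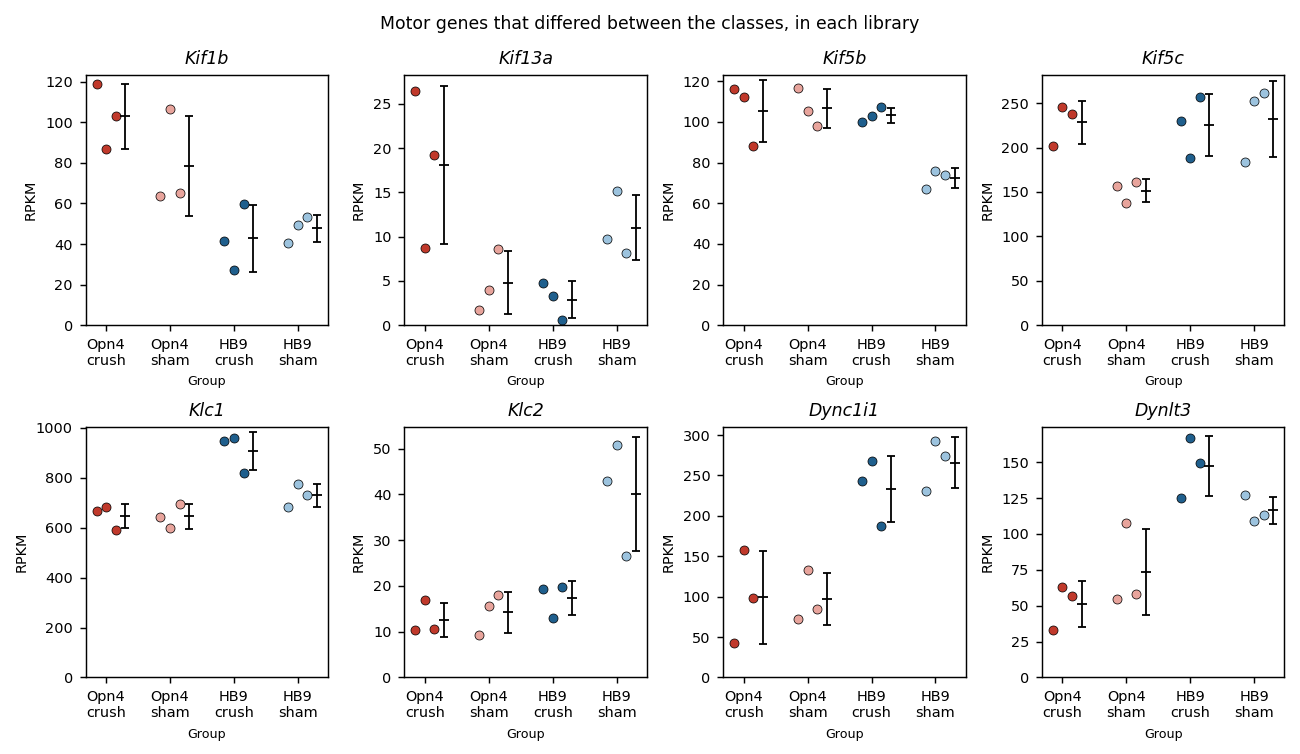
RPKM in each library of 8 motor genes that differed between the classes, by group; points are libraries and bars the mean ± SD of 3. Kif1b and Kif13a are higher in Opn4 crush than in HB9 crush, Dync1i1 is lower in both Opn4 groups than in both HB9 groups, and Klc2 is highest in HB9 sham.

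Proteins that join motors to cargo or regulate them were counted from a list of 31 genes outside the motor family, all of which were tested. In Opn4 cells 1 of 31 rose after crush and 0 fell, where 0.69% of all genes were called higher and 0.421% lower, and 10 were at an unadjusted p under 0.05, against 14.3%. That gene was Ndel1, a dynein regulator that works with Lis1, at 231, 271 and 281 RPKM in Opn4 crush libraries, against 161, 135.0 and 171.5 RPKM in Opn4 sham libraries. The groups did not overlap, with a log2 change of 0.74 ± 0.153 and an adjusted p of 0.0378, but the call was lost in 14 of 23 alternatives, at adjusted p of up to 0.224, and without any 1 of 10 of the 12 libraries. In HB9 cells Ndel1 was at 181, 170.0 and 179.9 RPKM after crush and at 124, 112 and 140.3 RPKM after sham, with a log2 change of 0.50 ± 0.153 and an adjusted p of 0.0764. By limma 0 of the 31 were called for crush in HB9 cells, where 6 were at an unadjusted p under 0.05, against 18.9% of all genes, and 0 for the difference in crush effect, where 3 were, against 12.9%.

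Between the classes, 3 of 31 were higher and 5 lower in Opn4 crush than in HB9 crush, against 5.12% and 7.6% of all genes (12.7% in either direction). At an unadjusted p under 0.05 by limma were 9 of 31, against 26.5% of all genes. Hap1, a huntingtin partner that links both motor types to vesicles, was at 190.2, 159 and 110.4 RPKM in Opn4 crush libraries and at 27.8, 42.3 and 49.4 RPKM in HB9 crush libraries. This was a log2 difference of 1.92 ± 0.3 with an adjusted p of 0.0012, kept in all 23 alternatives. Spag9, a scaffold that binds kinesin-1 and dynactin, averaged 67.4 ± 14.7 RPKM in Opn4 crush and 29.2 ± 6.90 RPKM in HB9 crush, a log2 difference of 1.18 ± 0.274 with a limma adjusted p of 0.0136. Fez2, of a family of kinesin-1 adaptors, averaged 112.5 ± 25.9 RPKM in Opn4 crush and 219.5 ± 12.5 RPKM in HB9 crush, a log2 difference of -0.98 ± 0.244 with a limma adjusted p of 0.0196. Arl8b, a lysosomal GTPase that recruits kinesin, and Kifap3 were lower in Opn4 than in HB9 cells after crush, by -0.88 ± 0.184 and -0.74 ± 0.137, and also after sham, by -0.64 ± 0.184 and -0.66 ± 0.137. After sham 3 of 31 were lower and 0 higher by limma, against 5.93% and 5.82% of all genes, with 10 at an unadjusted p under 0.05, against 24.7%. The other one was Actr1b, a subunit of the dynactin filament, at 136 ± 30.7 RPKM in Opn4 sham and 218 ± 42.1 RPKM in HB9 sham. Its log2 difference was -0.68 ± 0.2 with a limma adjusted p of 0.0443. After sham the call of Actr1b was lost in 13 of 23 alternatives, at adjusted p of up to 0.581, and that of Arl8b in 11, at up to 0.408. With the rod level as a covariate, of these class differences that of Hap1 was kept, and those of Spag9, Fez2, Arl8b, Kifap3 and Actr1b had adjusted p of 0.0541 to 0.581. Calls over all genes also fell with this covariate, as given above.

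Spindle genes outside the motor list gave 2 calls, named here after their values were seen. Of 18 cell cycle genes 7 were tested, and 2 were lower in Opn4 crush than in HB9 crush, where 7.6% of all genes were lower and 12.7% were called in either direction. Tpx2, which nucleates spindle microtubules, was listed at 0 in all 3 Opn4 crush libraries and at 5.05, 7.37 and 12.3 RPKM in HB9 crush libraries, with a limma adjusted p of 0.00081. It reached 1 RPKM only in the 6 HB9 libraries and so passed the filter through HB9 cells alone. Its class difference was thus built in, and the adjusted p gives no support for it. Aurka, the kinase it activates, was listed at 0 in all 3 Opn4 crush libraries and at 5.73, 3.87 and 8.84 RPKM in HB9 crush libraries, with an adjusted p of 0.0409 that was lost in 13 of 23 alternatives. Aurka was at 0, 11.3 and 0 RPKM in Opn4 sham libraries and at 2.90, 0.593 and 3.02 RPKM in HB9 sham libraries, so its highest value was in an Opn4 library. HB9 sham libraries held 1.74, 4.03 and 1.28 RPKM of Tpx2, and the change with crush in HB9 cells did not pass.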

How the data were processed

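The deposited table, made by the authors, holds RPKM per gene and library. Build mm10, edgeR 3.14.0, TopHat2 2.0.11 and Bowtie appear in the submitters' processing notes; which step used which, the counting, its use of strand and the annotation are not given in the sources used here. The steps of the RPKM values gave whole reads for 100% of the 28168 genes above 0, and these were used for depth and in 1 alternative; PCR-amplified reads are not independent molecules, so counts cover counting error only.

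The values were analysed as log2(RPKM + 1) in 1 limma 3.58.1 fit (R 4.3.3, lmFit, contrasts.fit, eBayes with trend) of 12 libraries and 4 group means, with 8 residual degrees of freedom and two-sided tests, after testing the fit on simulated data. Groups followed the sample titles. Errors of log2 values are limma SE and others SD. The motor genes, lists and tests were chosen with earlier results of these data known. Named with values were a preset list of motors, every motor gene called, the 10 most abundant, and up to 5 called adaptors per comparison. Alternatives were another pseudocount of 0.1, no filter, a filter of 6 libraries, TMM-type factors computed directly, quantile normalization, library weights, only the groups compared, a rod covariate, a replicate block, limma voom on the recovered reads, and leaving out libraries. Of the listed genes, Kif19b and Slc18a3 were not matched, and Kifbp was found under its older symbol 2510003E04Rik.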

Additional observations from a re-analysis of the deposited data

Results flagged for a closer look

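The effect of crush on Kif3a differed between the classes by the interaction contrast of the limma fit. The log2 change in Opn4 cells minus that in HB9 cells was -1.5641 (SE 0.222, adjusted p 0.00763). Kif3a was at 144 to 195 RPKM in Opn4 crush and 202 to 238 RPKM in Opn4 sham, and at 377 to 470 RPKM in HB9 crush and 163 to 192 RPKM in HB9 sham. Over the 22 alternatives the difference ranged from -1.66 to -1.44 and its adjusted p from 0.00774 to 0.0269. No other motor gene was called for this difference.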

How the results depend on the processing

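Of 1601 values of single genes under an alternative, 0 changed sign, 1396 kept direction and side of the threshold, 169 no longer passed and 36 newly passed. They cover 70 gene results: called genes, motor genes at an unadjusted p under 0.05, and Kif3a, Kifap3, Mapk8ip1 and Ndel1 for crush. Most were thus chosen for their effect in the same libraries, where a change of sign was unlikely beforehand. The lack of sign changes is no measure of how stable motor genes are in general. Counts of motor genes called changed as follows. In HB9 cells weighted libraries gave 10 calls (6 higher, 4 lower) in place of 4, and leaving out 1 library gave 2 to 4, with 2 without HB9 sham replicate 1 or 3 or HB9 crush replicate 1. In Opn4 cells leaving out 1 library gave 0 to 1. The class difference after crush gave 4 calls in place of 7 with no filter and with only the groups compared, 1 with the rod covariate, and 4 to 7 without 1 library. The class difference after sham gave 2 calls in place of 4 with no filter, 0 with the rod covariate, 2 without Opn4 sham replicate 1 and Opn4 crush replicate 1, and 0 to 4 without 1 library; the 1 call without Opn4 sham replicate 1 was none of the 4. The causes were not tested. Kif3a was the call for the difference in crush effect in all 22 alternatives. The gap between axonal and mitotic kinesins was 4.12 with mean log2 levels in place of medians, against 5.67. Over 18 same-numbered pairs the correlation of deviations from the group mean, over all genes tested, was -0.022 to 0.081. The mean log2 level of rod markers still fell from replicate 1 to 2 to 3 in all 4 groups. It was 6.72, 5.77 and 5.32 in Opn4 crush and 6.27, 5.60 and 4.70 in Opn4 sham. In HB9 crush it was 4.98, 4.51 and 4.18, and in HB9 sham 5.07, 3.86 and 3.31. The low correlations thus do not show that same-numbered libraries have nothing in common, and the source of this order was not tested. With the replicate number as a block, motor calls were 0 for crush in Opn4 cells, 3 in HB9 cells, 1 for their difference, 6 between classes after crush and 3 after sham. Depth limits the mitotic kinesins, most of which rest on few reads.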

Other observations

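Among the adaptors that did not pass, Mapk8ip1, the scaffold JIP1 that binds kinesin-1 and the JNK pathway, lay apart in both classes and is named after its values were seen. It was at 76.0, 90.8 and 91.7 RPKM in Opn4 crush libraries, against 39.1, 42.9 and 52.4 RPKM in Opn4 sham libraries. In HB9 crush libraries it was at 90.8, 59.6 and 103 RPKM, against 48.2, 53.0 and 40.2 RPKM in HB9 sham libraries. Crush libraries were above sham libraries without overlap in each class, with log2 changes of 0.94 ± 0.23 in Opn4 cells and 0.80 ± 0.23 in HB9 cells and limma adjusted p of 0.0752 and 0.0589. In HB9 cells the adjusted p was 0.0228 without HB9 crush replicate 2 and ranged from 0.0158 to 0.227 over the alternatives.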
